A study of Mus musculus with 5 samples.

Results

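Fibroblast growth factor (FGF) signalling genes were compared between mouse glioma and normal mouse brain: the 4 receptor tyrosine kinase genes Fgfr1, Fgfr2, Fgfr3 and Fgfr4, the secreted FGFs Fgf1, Fgf2, Fgf9 and Fgf10, and the intracellular FGFs Fgf12 and Fgf13. These 10 genes were taken as every array probe whose RefSeq accession maps to one of the symbols, which gave 18 probes, and they are 10 of the 21149 genes that could be named on the array. Total RNA of 3 gliomas and 2 normal brain samples, all of postnatal day 150, was labelled with Cy3 and hybridised to single-colour Agilent 60K mouse arrays, with 1 array for each sample. The labels call the tumour model MADM based, after mosaic analysis with double markers, where exchange between chromosomes in dividing cells leaves sparse, colour-marked mutant cells among unmutated ones. The labels used here give no mutated gene, Cre driver, strain or brain region for either group, nor do they say which samples are separate animals. The p-values therefore reflect only how far these samples vary, which may be technical variation.

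Secreted FGFs bind receptor pairs together with heparan sulfate chains at the cell surface, and the activated receptors signal through the adaptor FRS2 to the RAS-ERK cascade, whose output includes its own inhibitors. In the adult brain FGFR1 is found in neurons and in progenitor cells, FGFR2 in oligodendrocytes and astrocytes and FGFR3 mainly in astrocytes, while FGFR4 is scarce. The intracellular FGFs are not secreted in the classical way and are best known as partners of voltage-gated sodium channels in neurons.

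Signal over background stands in for depth on arrays. Of the 59305 spots other than controls, 61.5% to 64.0% were well above background on the normal brain arrays and 65.9% to 70.3% on the glioma arrays, and none was saturated. Precision is limited by how few arrays there are. All arrays lay on 1 slide in 1 scan, the gliomas in row 1 and the normal brain samples in row 2, so slide row and group cannot be told apart. Glioma 3 carried Xist RNA at a log2 level of 1.23 and no Ddx3y signal well above background, the reverse of the other 4 arrays, so it differed from them in sex. All 12 neuron markers were well above background in both groups and fell in glioma, with summed levels of 62.37 to 94.01 in glioma against 685.5 to 690.3 in normal brain (in units of the array's 75th percentile), while all 8 markers of oligodendrocyte progenitors and 7 of 8 of neural progenitors rose. In bulk RNA, fewer cells of a type and less RNA per cell cannot be told apart.

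Of the 10 genes, 2 rose, 7 fell and 1 did not pass the test in glioma (limma with Benjamini-Hochberg adjustment over 16891 genes, adjusted p under 0.05). Both risers were receptors, Fgfr1 and Fgfr4, and both were small changes. Neither passed with 1 normal brain array left out, in fits where fewer of all genes passed as well. Without normal brain 1 or 2 the log2 changes were 0.64 and 0.61 for Fgfr1 and 0.36 and 0.61 for Fgfr4. The 7 that fell were Fgfr2, Fgfr3, Fgf1, Fgf9, Fgf10, Fgf12 and Fgf13, each by more than 2-fold. Calls were common on these arrays, with 51.4% of all genes tested passing, 23.6% higher and 27.8% lower, and 35.6% passed with a change of at least 2-fold, 20.1% of all genes being lower by that much. The median log2 change of the 10 genes was -1.72, against -0.05 for all genes tested. In 9 of the 10 genes all glioma values lay on one side of both normal brain values, as in 74.1% of all genes. All 10 genes passed the filter on dim probes, and 9 of them were well above background on all 5 arrays, the exception being Fgf10. Fgf10 passed the filter through the normal brain arrays alone, so its call sets their signal against background. With the unscaled values of the authors' table, where all genes had a median change of 0.31, the split was 2 higher and 6 lower.

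**Figure D1:**
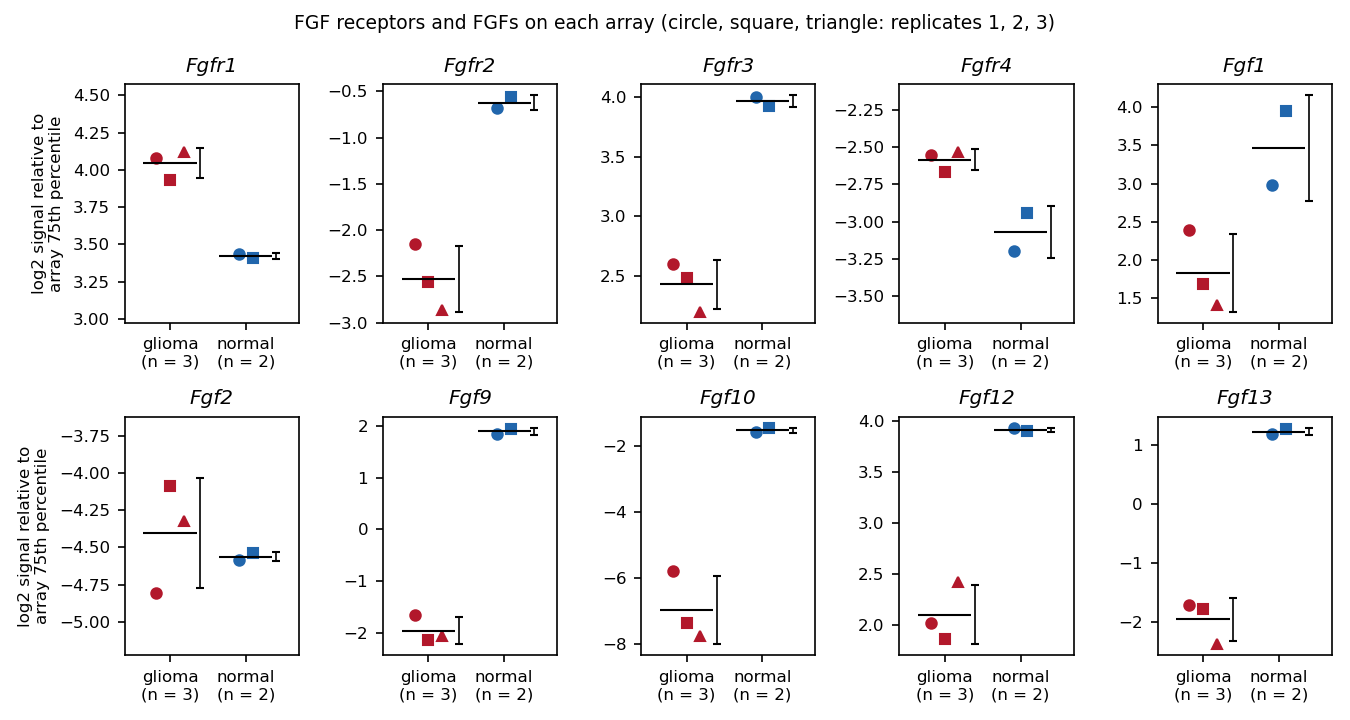
Log2 signal of the brightest probe of each gene relative to the array's 75th percentile (vertical axes, each with its own range), for 3 glioma arrays (red) and 2 normal brain arrays (blue); horizontal lines are group means and the bars beside them ± 1 SD. Fgf9, Fgf13, Fgf12, Fgfr2 and Fgfr3 separate the groups widely, Fgfr1 by 0.63, and Fgf2 overlaps.

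Fgfr1, the receptor of neurons and neural progenitors, was higher in every glioma. Its log2 level, relative to the array's 75th percentile as for all levels below, was 4.08, 3.93 and 4.12 in gliomas 1 to 3 and 3.43 and 3.41 in normal brains 1 and 2. The gliomas thus lay close together and above both normal samples. The rise was 1.54-fold (log2 change 0.63 ± 0.14, standard error of the limma fit as in all changes below, n = 3 and 2, adjusted p = 0.0157). Without normal brain 1 or normal brain 2 the change stayed at 0.64 and 0.61 and no longer passed (adjusted p = 0.125 and 0.136). Fgfr1 had 3 probes, and not all of them passed. The second rose by 0.52 ± 0.14 (adjusted p = 0.0297 in a fit over all named probes), and the dimmest changed by -0.06, with a 95% interval of -0.58 to 0.46. The array files do not say which exons a probe matches.

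Fgfr2, the receptor of oligodendrocytes and astrocytes, was lower in every glioma. Its levels were -2.15, -2.56 and -2.87 in gliomas 1 to 3 against -0.68 and -0.57 in normal brains 1 and 2. It fell 3.74-fold (log2 change -1.90 ± 0.24, adjusted p = 0.00263). A second Fgfr2 probe, printed in 10 spots, fell by 2.94 ± 0.24 (adjusted p = 0.000782). This probe was dim in the tumours, where 8, 9 and 4 of its 10 spots were well above background on glioma arrays 1 to 3, against all 10 on both normal brain arrays. Fgfr3, the astrocyte receptor, stood at 2.61, 2.49 and 2.20 in gliomas 1 to 3 and at 4.0 and 3.93 in normal brains 1 and 2. The groups were far apart compared with the spread inside either. Fgfr3 fell 2.89-fold (-1.53 ± 0.17, adjusted p = 0.00187), and its other probe fell by 1.26 ± 0.19 (adjusted p = 0.0044). Beside these falls, 4 of 10 astrocyte markers and 7 of 10 markers of mature oligodendrocytes fell and none rose. Summed astrocyte marker levels were 205.2 to 346.6 in glioma and 365.3 to 376.6 in normal brain. Those of oligodendrocytes ranged from 76.61 in glioma 3 to 355.5 in glioma 2, against 350.6 and 380 in normal brain. Such sums weigh the brightest genes most. Most of the glioma 2 sum came from Mag, which did not pass (adjusted p = 0.93). Mag stood at 5.33, 7.74 and 3.15 in gliomas 1 to 3 and at 5.18 and 5.32 in normal brain. Most of each astrocyte sum came from Aldoc, which did not pass either (adjusted p = 0.189). The part of these markers in the changes of Fgfr2 and Fgfr3 was not tested.

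Fgfr4, the receptor that is scarce in adult brain, was dim on every array. Its levels were -2.55, -2.67 and -2.53 in gliomas 1 to 3 and -3.19 and -2.94 in normal brains 1 and 2. The groups did not overlap, with normal brain 2 the nearer of the normal samples to the gliomas. The rise of 1.40-fold (0.49 ± 0.15) passed narrowly, at an adjusted p of 0.0447. With any 1 of the 5 arrays left out it did not pass, with log2 changes of 0.36 (without normal brain 1) to 0.61 (without normal brain 2), and with adjusted p from 0.0608 to 0.317. The other Fgfr4 probe changed by -0.03, with a 95% interval of -0.82 to 0.75, and was well above background on 1 of 2 normal brain arrays.

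The balance among the receptors can be read within each array, where the scaling between arrays cancels. Relative to the normal brain mean, the log2 ratio of Fgfr1 to Fgfr3 was 2.02, 1.99 and 2.46 in gliomas 1 to 3 and -0.02 and 0.02 in normal brains 1 and 2. The ratio of Fgfr1 to Fgfr2 was 2.19, 2.45 and 2.95 in the gliomas and 0.07 and -0.07 in normal brain. Both ratios were therefore higher in all 3 gliomas, with mean changes of 2.16 and 2.53. Fgfr1 and Fgfr4 kept nearly the same ratio, with a change of 0.14 (SD 0.03 among gliomas and 0.20 between normal brain samples). Of the 6 receptor pairs, 4 set Fgfr1 or Fgfr4 against Fgfr2 or Fgfr3. These 4 gave a two-sided exact permutation p of 0.1, the smallest that 10 splits of 3 against 2 allow. After adjustment over the 6 pairs it was 0.15. The other 2 pairs gave 0.2. With so few splits no pair could pass, so no conclusion is drawn from this test. The ratios use the same brightest-probe values as the changes above and are not separate evidence. The dimmest Fgfr1 probe (-0.06) and the other Fgfr4 probe (-0.03) showed no such rise, whereas the second Fgfr1 probe rose by 0.52.

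**Figure D2:**
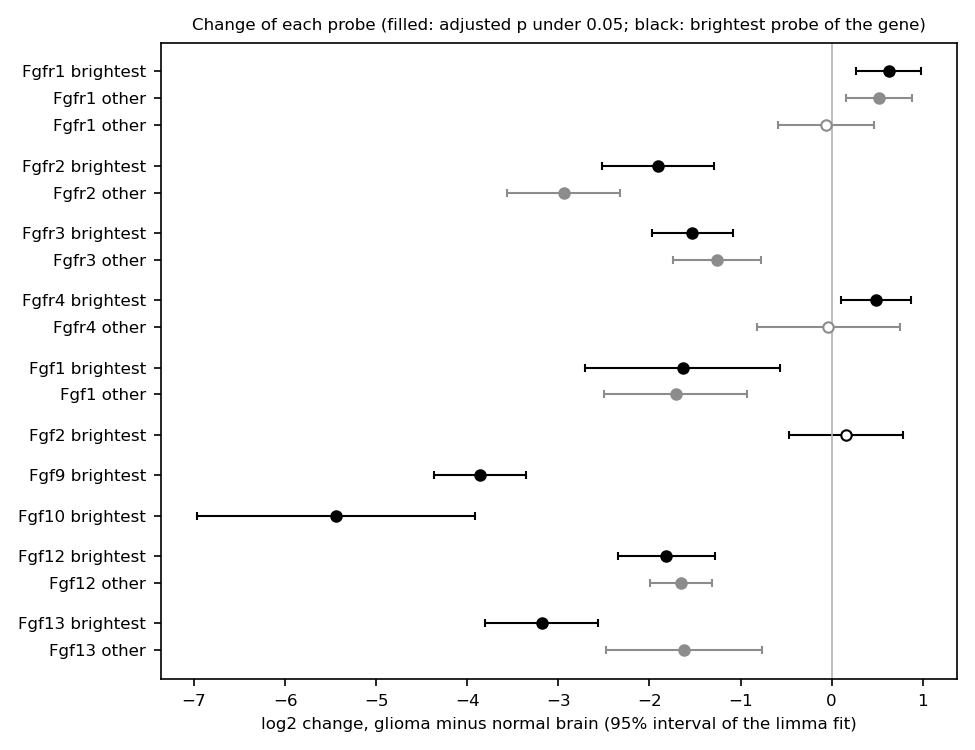
Log2 change (glioma minus normal brain, horizontal axis) of each of the 18 probes of the 10 genes with its 95% interval from the limma fit over all named probes, n = 3 and 2; filled points passed an adjusted p of 0.05. Probes of Fgfr2, Fgfr3, Fgf1, Fgf12 and Fgf13 fell on each probe, whereas 1 of 3 Fgfr1 probes and 1 of 2 Fgfr4 probes lie near 0; the Fgf10 point is the fitted change of a probe below background in glioma, not a bound.

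Among the secreted FGFs, Fgf9 and Fgf10 showed the largest falls. FGF9 is a factor released mainly by neurons that acts on FGFR2 and FGFR3. Its gene stood at -1.66, -2.15 and -2.08 in gliomas 1 to 3 and at 1.85 and 1.95 in normal brains 1 and 2. The groups lay far apart compared with the spread inside either. Fgf9 fell 14.5-fold (-3.86 ± 0.20, adjusted p = 0.000399).

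Fgf10, in the adult brain a product of hypothalamic tanycytes and a ligand of the epithelial form of FGFR2, was well above background on both normal brain arrays and on no glioma array. Its levels were -1.58 and -1.47 in normal brains 1 and 2, and its measured values in gliomas 1 to 3 were -5.80, -7.36 and -7.75. The probe was printed in 10 spots, of which 8 to 10 were kept on each array. All 9 kept spots on each normal brain array were well above background, against 3 of 10 in glioma 1 and 0 of 8 in gliomas 2 and 3. A trace of signal was thus present in glioma 1 only at the edge of detection. The fitted change gave an adjusted p of 0.00175, but Fgf10 passed the filter through normal brain alone, so no support is drawn from it. Fgf10 was at least 21.7-fold lower in glioma. This bound sets each glioma array at the lowest log2 level of any probe well above background there, or at the measured Fgf10 value if that is greater. That lowest level is not a detection limit for every probe. On normal brain 2 it was -5.28, and the other Fgfr4 probe, at -5.04, was not well above background there. The bounds given here and below therefore hold by this rule only, and for the signal processed by Feature Extraction. With normexp background correction, which adds an offset of 50 to every signal, Fgf10 fell by 2.37 on the log2 scale, less than the bound. Of the 8 tanycyte markers, 6 were tested, of which 4 fell and 1 rose, and the tanycyte factor Rax was not well above background in any glioma. The summed level of the list was 11.45 to 13.46 in glioma against 25.57 and 26.73 in normal brain, and its part in the fall of Fgf10 was not tested.

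Fgf1, a broadly acting ligand of all the receptors, was lower in glioma but varied between samples. Its levels were 2.40, 1.68 and 1.41 in gliomas 1 to 3 and 2.98 and 3.95 in normal brains 1 and 2. The groups did not overlap, but the normal brain samples differed by 0.98, as far apart as or farther than in all but 2.74% of genes tested. A second Fgf1 probe ordered the 5 arrays in the same way, at -4.10, -4.72 and -4.82 in gliomas and -3.13 and -2.53 in normal brain. Fgf1 fell 3.105-fold (-1.63 ± 0.42, adjusted p = 0.0262), and the second probe by 1.71 ± 0.31 (adjusted p = 0.00778). The brighter probe's call was lost without glioma 2 (-1.56, adjusted p = 0.0722), glioma 3 (-1.42, 0.0604) or normal brain 2 (-1.15, 0.135).

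Fgf2, the basic FGF on which neural stem cells and many glioma cultures are grown, did not pass the test. Its levels were -4.81, -4.09 and -4.32 in gliomas 1 to 3 and -4.58 and -4.54 in normal brains 1 and 2. Glioma 1 lay below both normal samples and gliomas 2 and 3 above them. The change was 0.16 ± 0.25 with a 95% interval of -0.47 to 0.78 (adjusted p = 0.619). The probe was dim, and its kept spots varied with an SD of 0.13 to 0.29 within an array, while 8 to 10 of them were well above background on each array. The sign of this change turned with background correction by normexp (-0.14) and without glioma 2 (-0.0026).

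**Figure D3:**
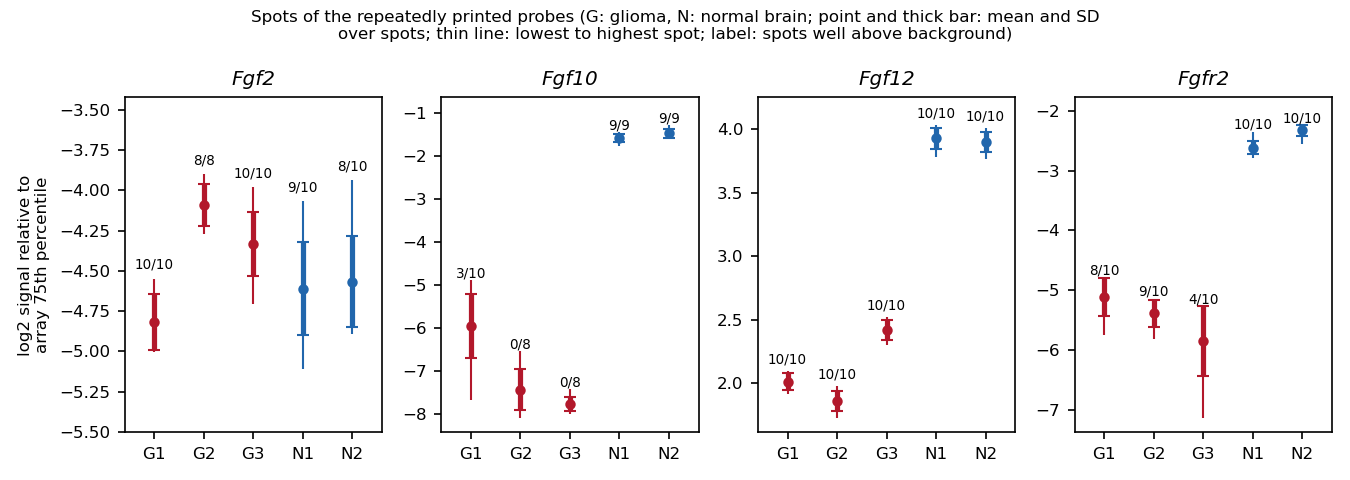
Spots of the 4 probes printed repeatedly on each array (G1 to G3 gliomas, N1 and N2 normal brain); points and thick bars are the mean and SD over spots of the log2 signal relative to the array's 75th percentile, thin lines the lowest to highest spot, and labels the spots well above background of those kept. Spots of one array share its RNA and are not replicates; Fgf12 stays tight on all arrays, Fgf10 falls to background in the gliomas, and the Fgf2 spots of both normal brain arrays overlap those of each glioma.

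The intracellular FGFs fell on each of their probes. Fgf12, a sodium channel partner of neurons, stood at 2.02, 1.86 and 2.42 in gliomas 1 to 3 and at 3.93 and 3.90 in normal brains 1 and 2. It fell 3.515-fold (-1.81 ± 0.21, adjusted p = 0.00191), and the second probe fell by 1.65 ± 0.13 (adjusted p = 0.000727). Glioma 3 was the highest of the tumours, and all 3 lay well below normal brain. Fgf13, which binds sodium channels and microtubules and lies on the X chromosome, stood at -1.71, -1.78 and -2.37 in gliomas 1 to 3 and at 1.18 and 1.28 in normal brains 1 and 2. It fell 9.08-fold (-3.18 ± 0.24, adjusted p = 0.000684). A dimmer Fgf13 probe fell by 1.62 ± 0.34 (adjusted p = 0.0127), with 95% intervals of -3.80 to -2.56 for the brighter and -2.48 to -0.76 for the dimmer probe. Glioma 3, which differed from the others in sex, was the lowest for both probes, and without it Fgf13 fell by 2.97. The mean of its detected probes fell by 2.40. Both genes fell beside the neuron markers given above, whose part in these changes was not tested.

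Promoter sequence is shown for Fgf9, Fgf10 and Fgfr2, the members that fell and have a single start site window in the RefSeq promoter table (build GRCm38.p6); 8 of the 10 genes matched the table, with 15 windows in all. Each run holds the 250 bases before the annotated start, 5′ to 3′ on the gene's strand, with matches to the GC box, GGGCGG on either strand, in capitals. Fgf9 lies on the plus strand at chr14:58072436-58072685, Fgf10 on the plus strand at chr13:118714449-118714698, and Fgfr2 on the minus strand at chr7:130266809-130267058.
Fgf9: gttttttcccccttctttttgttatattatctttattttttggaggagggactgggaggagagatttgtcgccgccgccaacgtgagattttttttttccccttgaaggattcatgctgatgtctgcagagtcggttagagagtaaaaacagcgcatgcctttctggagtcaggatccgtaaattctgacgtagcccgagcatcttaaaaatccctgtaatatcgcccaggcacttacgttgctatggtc
Fgf10: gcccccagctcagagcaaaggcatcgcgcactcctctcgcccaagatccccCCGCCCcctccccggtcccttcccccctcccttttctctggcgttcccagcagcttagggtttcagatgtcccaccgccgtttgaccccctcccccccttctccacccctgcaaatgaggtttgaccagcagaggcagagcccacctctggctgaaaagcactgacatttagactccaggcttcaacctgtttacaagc
Fgfr2: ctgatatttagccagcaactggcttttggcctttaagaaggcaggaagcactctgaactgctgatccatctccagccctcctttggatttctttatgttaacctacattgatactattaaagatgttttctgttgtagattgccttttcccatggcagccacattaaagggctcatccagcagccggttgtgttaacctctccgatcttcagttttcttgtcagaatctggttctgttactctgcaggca
Of these, the Fgf10 window alone held a GC box, in 1 place, whereas 10 of the 15 windows of the members did, against 32.7% of all 32851 windows in the table. Fgf12 and Fgf13 had 4 windows each, so the 15 windows are not separate genes and no excess is claimed. The CpG count was 11 for Fgf9, 8 for Fgf10 and 2 for Fgfr2, against a median of 6. No member's window held the TATA box TATAAA (12.4% of all windows), 2 held the ETS core CCGGAA (12%) and 3 the CCAAT box CCAAT (33.8%), each searched on both strands. None of these motifs contains another, though matches may share bases, and a match describes the sequence only.

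Other genes of the FGF system, 90 in 8 lists, were examined beside the members. Of these, 82 passed the filter, 23 rose and 23 fell, with a median log2 change of -0.22. Over all genes tested 23.6% rose and 27.8% fell, shares to be read beside these counts and those of each list below. Without normal brain 1 or 2 fewer rose and fewer fell, as among all genes tested. These lists were written with earlier results of these data known.

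Among 14 other secreted FGFs, 7 were tested, of which 1 rose and 3 fell. Fgf22, an organiser of presynaptic terminals, fell by 2.59 ± 0.20 (adjusted p = 0.000692), from -2.40 and -2.69 in normal brain to -5.20, -4.87 and -5.32 in gliomas 1 to 3. Fgf18 fell by 2.42 ± 0.16 (adjusted p = 0.000543). Fgf23, a hormone of phosphate balance, stood at 2.14, 3.61 and 4.12 in gliomas and 5.19 and 5.29 in normal brain, a fall of 1.95 ± 0.60 (adjusted p = 0.0443). That call was lost without glioma 2 (-2.11), normal brain 1 (-2.00) or normal brain 2 (-1.91). Fgf15, an FGF of the embryonic brain and of the gut, was well above background in all 3 gliomas and in neither normal brain. It was at least 3.41-fold higher in the processed signal (adjusted p = 0.000584). Fgf15 passed the filter through the glioma arrays alone, so no support is drawn from its p-values. With normexp the Fgf15 change was 0.61 (adjusted p = 0.021), below that bound, and that of Fgf22 was -1.44. No other FGF gene, members included, passed as higher in glioma. Fgf5, Fgf7 and Fgf8 did not pass. Of the 7 not tested, Fgf3 was well above background on 1 array and Fgf4, Fgf6, Fgf16, Fgf17, Fgf20 and Fgf21 on none. The other intracellular FGF to pass was Fgf14, which fell by 2.58 ± 0.28 (adjusted p = 0.00167), while Fgf11 changed by -0.88 ± 0.34 (adjusted p = 0.0853).

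Co-receptors and FGF binding proteins gave 1 riser and 3 fallers of 11. The riser was Fgfrl1, a receptor-like protein without a kinase domain, which stood at 4.38, 4.50 and 4.27 in gliomas 1 to 3 and at 2.17 and 2.36 in normal brain (2.12 ± 0.15, adjusted p = 0.000599). Kl, the klotho co-receptor of FGF23, which in brain is made chiefly by the choroid plexus, fell 42.8-fold, from 1.46 and 1.62 to -3.80, -4.23 and -3.60 (adjusted p = 0.000366), with a log2 change of -4.42 with normexp. All 8 choroid plexus markers fell as well, with a summed level of 0.5218 to 0.7958 in glioma against 249.5 and 256 in normal brain, and their part in the change of Kl was not tested. The adhesion genes Flrt2 and L1cam fell by 2.53 ± 0.30 and 1.93 ± 0.20 (adjusted p = 0.00213 and 0.00132), and Ncam1 and Cdh2 did not pass.

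Heparan sulfate, the sugar chain that FGFs need to engage their receptors, is carried by syndecans and glypicans. Among 10 such proteoglycan genes 5 rose and 2 fell (median 0.64). Sdc1 rose by 2.83 ± 0.26 (adjusted p = 0.001), Gpc2 by 2.37 ± 0.29 (adjusted p = 0.00245, detected on 1 of 2 normal brain arrays) and Gpc3 by 1.55 ± 0.19 (adjusted p = 0.00251). Sdc4 and Sdc2 fell by 2.27 ± 0.49 and 0.78 ± 0.17 (adjusted p = 0.0151 and 0.0149). Of 17 enzymes that build or trim the chain, 4 rose and 6 fell, with a median of -0.40. The sulfatases, which remove sulfate groups outside the cell, went opposite ways. Sulf2 rose from 2.53 and 2.54 in normal brain to 4.59, 4.72 and 5.26 in gliomas 1 to 3 (2.33 ± 0.24, adjusted p = 0.00141). Sulf1, chosen after its value was seen, fell by 1.66 ± 0.26 (adjusted p = 0.00546). Extl1 and Ndst3 fell by 2.71 ± 0.36 and 2.55 ± 0.40, and Ndst2 rose by 0.97 ± 0.14. The sulfotransferase gene Hs6st3 was at least 6.1-fold lower in the processed signal of all 5 arrays. Its log2 change was smaller than that bound with normexp (-1.17) and with quantile scaling (-1.68). It was also smaller without glioma 3 (-1.48) and without normal brain 1 or 2 (-1.62 and -1.71). Hs6st3 passed with normexp, with quantile scaling and without glioma 3. For the fits with 1 normal brain array only the size of the change is given. The brightest probe was chosen anew in each setting. The probe used with all 5 arrays passed the filter through the normal brain arrays alone. It stood at -5.95, -6.10 and -5.84 in gliomas 1 to 3 and at -3.22 and -3.29 in normal brain. The changes given here with 1 array left out are therefore those of another Hs6st3 probe, and those with normexp and quantile scaling may be too. With normexp the rises of Sdc1 and Gpc2 were 1.7 and 0.94. Without normal brain 1 or 2 neither fall among the proteoglycans passed (Sdc4 -2.23 and -2.31, Sdc2 -0.75 and -0.81), the enzymes gave 2 or 1 rises and 4 falls, and Ndst2 did not pass without normal brain 2 (0.93).

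Among the adaptors and other proteins next to the receptor, 14 of 15 were tested, and 3 rose and 2 fell (median 0.15). With normexp 5 rose and 2 fell, and with the unscaled values of the authors 6 rose and 0 fell. Gab1, a docking protein for PI3 kinase, rose by 1.96 ± 0.24 (adjusted p = 0.00241), from -0.75 and -0.48 to 1.31, 1.03 and 1.7. Crkl and Shc3 rose by 0.76 ± 0.17 and 0.73 ± 0.16, Shc2 and Grb2 fell by 0.61 ± 0.14 and 0.47 ± 0.14, and Frs2, the main FGF receptor adaptor, changed by -0.33 ± 0.19 (adjusted p = 0.206). Without normal brain 1 or 2 the changes were 0.80 and 0.72 for Crkl, 0.81 and 0.64 for Shc3, -0.58 and -0.65 for Shc2 and -0.45 and -0.48 for Grb2, and none of these passed, so that 1 gene rose and none fell. Grb2 was also lost without glioma 2 (-0.46).

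Feedback inhibitors and targets of FGF-ERK signalling rose in 9 of 12 cases and fell in none, with a median of 1.54, the highest of the 8 lists. These genes answer to other receptors of the RAS-ERK route as well. Spred3 went the other way without passing (-1.40 ± 0.52, adjusted p = 0.075). With normexp and with the replicate block 1 gene of the list passed as lower. Spry1, which restrains receptor tyrosine kinase signalling, rose by 4.97 ± 0.26 and the transcription factor gene Etv4 by 4.46 ± 0.30 (adjusted p = 0.000403 and 0.000543). Spry4, not well above background in normal brain, was at least 2.69-fold higher in the processed signal. Its change with normexp was 0.61 (adjusted p = 0.0371), below that bound. Spry4 passed the filter through the glioma arrays alone, so no support is drawn from that p. The count was 7 without glioma 1 and 6 without either normal brain sample, and 1 gene fell without glioma 3.

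Partners of the intracellular FGFs fell in 6 of 9 cases and rose in none, with a median of -2.40. The sodium channel subunit genes Scn4b, Scn2b and Scn2a fell by 3.91 ± 0.19, 3.75 ± 0.30 and 2.5 ± 0.24 (adjusted p = 0.000389, 0.000753 and 0.00116). Scn8a changed by 0.72 ± 0.40 and did not pass, and the neuron markers given above moved with this list also.

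**Figure D4:**
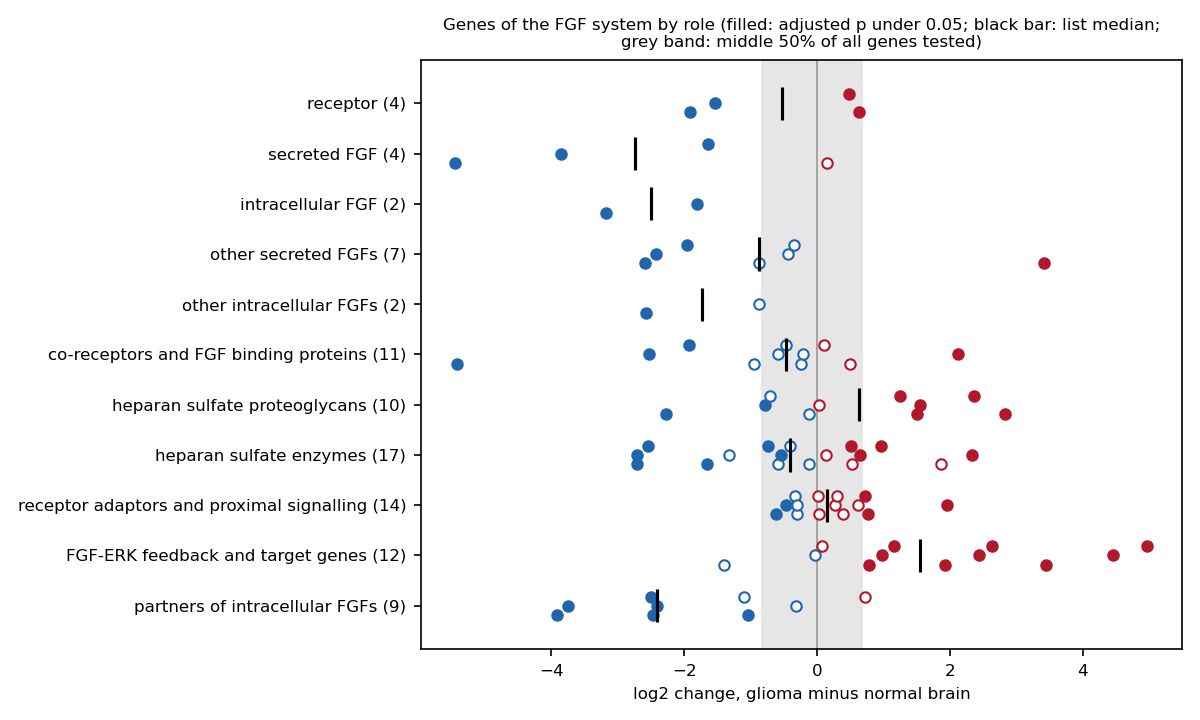
Log2 change (glioma minus normal brain, horizontal axis) of every tested gene of the FGF system by role, with the number tested in parentheses; filled points passed an adjusted p of 0.05, black bars are list medians and the grey band holds the middle 50% of all genes tested. The feedback list lies to the right and the intracellular FGFs and their partners to the left; points of genes below background in 1 group (Fgf10, Fgf15, Spry4 and Hs6st3) are fitted changes, not bounds.

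For each receptor, the genes with the most similar profile were found by the root mean square difference of log2 values, centred on each gene's mean, over the 5 arrays. They were Igbp1 (0.0155) and Nif3l1 (0.0184) for Fgfr1, Ypel3 (0.045) and Eps15 (0.0612) for Fgfr2, Cmas (0.03) and Cib2 (0.0379) for Fgfr3, and Lrba (0.0469) and Fndc7 (0.0487) for Fgfr4. With 5 arrays and 16891 genes such closeness is a description only.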

How the data were processed

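Per the submitters' processing notes the authors used Agilent Feature Extraction 10.7.3.1. It gave the deposited intensity of each spot, with background subtracted and spatially detrended per the file headers. The 0 or 1 flags of each spot are those deposited, another kind of value set by Feature Extraction per the file headers. A table of the authors, deposited in log2, matched the log2 processed signal of every array (median difference 0, correlation 1). Control spots and outlier spots were left out, spots of a probe were averaged, and each array's 75th percentile was subtracted on the log2 scale. A probe counted as well above background when at least 0.5 of its spots did. Probes were named through RefSeq accessions (28019 probes, 21149 genes), each gene by its brightest probe, and limma 3.58.1 (two-sided, lmFit then eBayes, R 4.3.3) was run on the 16891 genes whose probe passed on 2 or more arrays, beside Python 3.11.15, pandas 2.3.3 and matplotlib 3.10.9. The fit was also run on simulated data with equal spread in both groups and few changed genes. These arrays differ in both respects, so no support for the results is drawn from that run. The members and lists were chosen with earlier results of these data known. Named beside the members were up to 3 called genes in the main direction of each list and 2 in the other, every called FGF and co-receptor, and the 2 nearest profiles of each receptor. Ncam1, Cdh2, Frs2, Scn8a, Fgf5, Fgf7, Fgf8, Fgf11, Sulf1 and Spred3 were chosen after their values were seen. Alternatives covered the background correction, scaling, filter, probe choice, moderation, each array left out and a replicate block. Replicate numbers were not taken as pairs. The files give the median and not the mean of a spot, so normexp was run on the median, an alternative added after the files were seen.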

Additional observations from a re-analysis of the deposited data

How the results depend on the processing

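The falls of Fgfr2, Fgfr3, Fgf9, Fgf12 and Fgf13 passed under all 14 alternatives. That of Fgf10 passed under the 11 that could test it, with the size of its fall depending on the background correction. Those 11 passes set normal brain signal against background and add no support for the fall of Fgf10. The filter on all arrays and the fits with 1 normal brain array left Fgf10 untested. Fgfr4 did not pass with normexp (0.20), median scaling (0.51), no filter on dim probes (0.49), the mean of detected probes (0.23) or a trended, robust eBayes (0.49), and Fgfr1 not with the mean of detected probes (0.36). Members higher numbered 1 with normexp, median scaling, no filter and the trended eBayes, and 0 with the mean of detected probes. Fgf1 did not pass in the authors' unscaled value table (-1.28, adjusted p = 0.0558), where 63.7% of calls were higher, against 46.0% in the scaled values. Fgf2 and Fndc7 turned sign with normexp, at -0.14 and -0.024. Fgf23 was lost with quantile scaling (-1.88) and in the value table (-1.58), Grb2 with quantile and median scaling (-0.37 and -0.44), and Shc2 with the mean of detected probes (-0.12). Sdc2, Shc2 and Grb2 were lost in the value table (-0.42, -0.26 and -0.11). The cause was not tested. With 1 array left out at a time, the log2 changes ranged from 0.59 to 0.68 for Fgfr1, 0.36 to 0.61 for Fgfr4, -2.12 to -1.15 for Fgf1 and -0.0026 to 0.36 for Fgf2. Members higher numbered 0 to 1 and lower 5 to 7, pathway genes higher 15 to 25 and lower 15 to 30, and all genes higher 1962 to 4379 and lower 2426 to 5064. Where 1 normal brain array remains, it is assumed to vary like the gliomas. Deviations of same-numbered samples correlated at 0.04 for both shared numbers. With the replicate block, in which glioma 3 adds nothing to the contrast, 0 members were higher and 6 lower, with Fgfr1 at 0.59 (adjusted p = 0.0532), Fgfr4 at 0.46 (0.12) and Fgf1 at -1.42 (0.091), Shc2 and Grb2 were lost as well, and 3787 genes were higher and 4479 lower. The planned normexp on mean signals was not run. Changes of Fgf10, Fgf15, Spry4 and Hs6st3 with normexp lay below their bounds, at -2.37, 0.61, 0.61 and -1.17.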

Other observations

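Fgf1 was not alone in differing between the normal brain samples. Across all genes tested the median difference between them was 0.10, and 463 of 16891 genes differed by at least the 0.98 of Fgf1. Among genes well above background on both arrays, chosen after their values were seen, Crx, a transcription factor of photoreceptors and pineal cells, was at 0.67 in normal brain 1 and -4.97 in normal brain 2, and Hcrt, the hypothalamic hypocretin gene, at 0.30 and -2.94. Itm2a lay the other way, at -3.08 and 2.65. By their brightest probes, only Fgf1 and Fgfr4 of the 10 FGF genes differed by more than 0.2 between the normal brain samples, by 0.98 and 0.25. Some dimmer probes differed as well. The other Fgfr4 probe stood at -4.12 and -5.04 in normal brains 1 and 2, and the second Fgfr2 probe at -2.61 and -2.32.

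Among the gliomas the FGF genes varied unequally. By their brightest probes, Fgf10 spanned 1.95 and Fgf1 0.99, while Fgfr4 and Fgfr1 spanned 0.13 and 0.19, less than in most genes. Of genes tested, 93.7% and 87.7% had a glioma range at least as wide. Other probes of both receptors varied more. The dimmest Fgfr1 probe stood at -0.60, -1.16 and -0.95 in gliomas 1 to 3, and the other Fgfr4 probe at -4.40, -4.73 and -4.71. The median range over all genes was 0.50.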
